A study of Mus musculus with 12 samples.

Results

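The CC chemokines are small secreted proteins that direct the migration of leukocytes, and 9 of their genes (Ccl2, Ccl3, Ccl4, Ccl5, Ccl6, Ccl7, Ccl8, Ccl9 and Ccl12) were followed here in macrophages of the fibrotic mouse lung. They were chosen by symbol from the 52636 genes of the count table. Each symbol belonged to 1 gene, and all 9 had enough counts to be tested. RNA of lung Cx3cr1+ macrophages was sequenced in bulk in 3 groups of 4 libraries. The first group came from bleomycin-treated animals labelled as knockout for the IL-4 receptor alpha chain (bleomycin KO), the second from bleomycin-treated animals labelled wild type for it (bleomycin WT), and the third from saline-treated animals labelled wild type (saline WT). Bleomycin injures the lung and serves to model fibrosis. The labels used here give no promoter or cell type for the deletion, no strain, sex, age or day of collection, and do not state that the 4 libraries of a group are from different mice. The p-values are therefore about the spread of these libraries alone, part of which may be technical. A saline group with the deletion was not analysed here.

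CC chemokines carry a pair of adjacent cysteines near the start of the mature protein, and they act through G protein-coupled receptors on the cells they attract. Ccl2, Ccl7 and Ccl12 bring monocytes into inflamed tissue through Ccr2, and mouse Ccl8 acts mainly through Ccr8. Ccl3, Ccl4 and Ccl5 attract monocytes, macrophages and T cells, and Ccl3 and Ccl5 bind Ccr1. Ccl6 and Ccl9 are chemokines of rodents that bind Ccr1. In bleomycin-injured lungs, Ccl2 and its receptor are known for recruiting the monocytes that become macrophages.

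All 9 genes lie on chromosome 11 of GRCm38, in 2 clusters. Ccl2, Ccl7, Ccl12 and Ccl8 stand in that order, all on the plus strand, between bases 82035571 and 82116799, a span of 81.2 kb. Ccl5, Ccl9, Ccl6, Ccl3 and Ccl4 follow between bases 83525778 and 83664683, a span of 138.9 kb, and of these Ccl4 alone is on the plus strand. The clusters are 1409 kb apart. GENCODE vM21 annotates each gene as protein-coding and gives no other gene that overlaps its exons. The members are related genes, and no source used here says how reads matching more than 1 gene were counted.

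The promoters of 4 members are shown. They belong to the members with the highest log2 fold changes between bleomycin and saline (Ccl9 and Ccl6) and to those of the Ccl2 cluster for which a promoter was at hand (Ccl12 and Ccl8). Each runs from 250 bases before the annotated start to 50 bases after it, 5′ to 3′ on the gene's own strand, from RefSeq on GRCm38.p6. The windows are chr11:83578587-83578886 (minus strand) for Ccl9, chr11:83593038-83593337 (minus) for Ccl6, chr11:82101595-82101894 (plus) for Ccl12 and chr11:82114935-82115234 (plus) for Ccl8. Capitals mark matches, on either strand, to 5 motifs that were searched. TATAAA is the core of a basal promoter element. GGAAGT is a core bound by PU.1 and other ETS factors. The kB motif is that of NF-kB and the STAT motif that of the STAT factors. TGANTCA is the motif of AP-1.
Ccl9: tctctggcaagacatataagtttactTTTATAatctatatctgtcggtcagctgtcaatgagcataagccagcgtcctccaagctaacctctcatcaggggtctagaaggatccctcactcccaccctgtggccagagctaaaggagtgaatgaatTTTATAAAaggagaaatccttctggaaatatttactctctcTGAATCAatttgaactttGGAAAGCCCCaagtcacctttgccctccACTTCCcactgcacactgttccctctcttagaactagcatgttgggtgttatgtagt
Ccl6: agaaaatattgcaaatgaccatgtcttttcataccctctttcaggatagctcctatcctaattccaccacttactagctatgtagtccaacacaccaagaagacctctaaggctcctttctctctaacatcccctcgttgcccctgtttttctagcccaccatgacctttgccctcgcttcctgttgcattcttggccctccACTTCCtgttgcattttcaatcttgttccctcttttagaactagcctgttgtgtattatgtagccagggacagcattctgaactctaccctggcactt
Ccl12: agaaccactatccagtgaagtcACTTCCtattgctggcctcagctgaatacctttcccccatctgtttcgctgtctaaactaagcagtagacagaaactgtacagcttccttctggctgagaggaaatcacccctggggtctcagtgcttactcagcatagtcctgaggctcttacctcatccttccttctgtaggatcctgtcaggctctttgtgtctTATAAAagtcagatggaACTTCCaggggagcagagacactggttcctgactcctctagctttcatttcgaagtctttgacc
Ccl8: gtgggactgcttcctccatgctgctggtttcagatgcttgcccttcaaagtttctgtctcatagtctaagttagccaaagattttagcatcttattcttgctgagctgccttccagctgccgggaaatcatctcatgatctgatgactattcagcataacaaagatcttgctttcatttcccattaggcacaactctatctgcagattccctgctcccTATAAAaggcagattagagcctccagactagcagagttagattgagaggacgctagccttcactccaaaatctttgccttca

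The TATAAA motif began 31 bases before the start of Ccl12 and 32 bases before that of Ccl8. In Ccl9 it was found 224, 94 and 92 bases before the start, the last 2 as overlapping matches on opposite strands. Of all 32851 promoters of the same length, 13.6% held this motif. GGAAGT, found in 23.8% of all promoters, began 228 and 14 bases before the start in Ccl12, 48 bases before it in Ccl6, 7 bases before it in Ccl9, and 209 bases before it in Ccl3, whose promoter (chr11:83649329-83649628, minus) was scanned too. The Ccl9 window alone among these 5 held a kB match (35 bases before the start; 4.51% of all promoters) and a TGANTCA match (53 bases before it; 7.81% of all promoters). The STAT motif, in 6.95% of all promoters, was in 0 of the 5 windows. Ccl9 and Ccl6 shared a run of 13 bases (gccctccacttcc), which ends in the GGAAGT match of each, whereas the longest shared run of any other pair of these 5 was 7 to 11 bases. A match describes the letters and does not show that a factor bound there.

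Total counts ran from 60598 in saline WT 2 to 18051113 in bleomycin WT 2. Saline WT 2 was so shallow that 3 counts in it were worth 32.4 CPM (counts divided by the TMM-adjusted library size and scaled to 1000000), against 0.185 to 0.730 CPM in the other 11. Across genes, the best Spearman correlation with another library was 0.498 in saline WT 2, 0.658 in saline WT 1 and 0.730 in bleomycin WT 4, the 3 lowest values of the 12. Bleomycin WT 4 also had the lowest TMM factor, 0.579. Il4ra checks the genotype labels: it was at 332 ± 104 CPM in bleomycin KO, hardly below the 355 ± 203 CPM of bleomycin WT, and at 177 ± 127 CPM in saline WT (SD, n = 4 each). Its counts include any exon outside a deleted part, and KO here stands for the label. The 10 macrophage markers summed to 47466 to 68188 CPM in bleomycin KO, 28677 to 50866 CPM in bleomycin WT, with saline WT at 14290 to 33937 CPM. Cx3cr1 itself was at 97.3 ± 16.1 CPM in bleomycin KO, 57.0 ± 43.3 CPM in bleomycin WT, with saline WT at 343 ± 401 CPM (SD, n = 4 each). Some markers of other cells had different levels in bleomycin and saline libraries, though edgeR called 0 markers of every list, higher or lower, in each of the 3 comparisons. The 12 neutrophil markers, S100a8 and S100a9 foremost, summed to 1251 to 2046 CPM in bleomycin KO, 623 to 1707 CPM in bleomycin WT, with saline WT at 2710 to 31026 CPM, and all 12 had log2 fold changes below 0 in both bleomycin groups against saline. The 8 lung epithelium markers summed to 211 to 644, 202 to 965 and 1517 to 2412 CPM in the same 3 groups. The sums of the T and NK cell markers (224 to 533, 220 to 763 and 10.8 to 393 CPM), the endothelium markers (76.7 to 171, 90.9 to 805 and 54.0 to 422 CPM), the dendritic cell markers (357 to 475, 255 to 524 and 10.8 to 920 CPM), the fibroblast markers (135 to 511, 243 to 331 and 108 to 435 CPM) and the eosinophil, basophil and mast cell markers (151 to 244, 106 to 720 and 21.6 to 1881 CPM) overlapped between groups. Log2 fold changes of the 12 T and NK cell markers were above 0 for all 12 in bleomycin WT against saline WT (median 0.65) and for 11 in bleomycin KO against saline WT (median 0.70). In the same 2 comparisons they were above 0 for 3 and 0 of 8 endothelium markers (medians -1.66 and -1.49). For lung epithelium it was 2 and 1 of 8 (-1.34 and -1.49), and for dendritic cells 3 and 2 of 8 (-0.57 and -0.67). For eosinophils, basophils and mast cells it was 0 and 1 of 6 tested (-1.43 and -1.55). For fibroblasts it was 5 and 6 of 8 (0.40 and 0.65), and for macrophages 7 and 7 of 10 (0.69 and 0.92). The basophil gene Mcpt8 was at 0 in all 4 saline WT libraries, and every other marker of these lists had a count in each group. In bulk RNA, fewer cells of a type and less RNA per cell cannot be told apart.

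Ccl6 was the most abundant member per kb of exon in every group. Divided by the exonic size of the gene, its level was 2657 ± 581 CPM per kb of exon in bleomycin KO, 4122 ± 4087 in bleomycin WT and 1600 ± 577 in saline WT (SD, n = 4 each). In bleomycin WT its lead over Ccl2 was smaller than its own SD. Its level was 41.3%, 58.5% and 35.0% of the summed level per kb of the 9 members in the same 3 groups. Ccl4 was second in bleomycin KO (893 ± 226 CPM per kb) and in saline WT (604 ± 193), and behind Ccl2 (834 ± 740) in bleomycin WT (436 ± 258). Without bleomycin WT 4, Ccl2 was at 475 ± 219 and Ccl4 at 494 ± 283 CPM per kb in bleomycin WT (SD, n = 3), behind Ccl8 at 527 ± 234. Ccl2 was at 602 ± 189 CPM per kb in bleomycin KO and 413 ± 352 in saline WT. Ccl9, the gene with the largest exonic size of the set (3006 bases), ranked 7 of 9 in bleomycin KO (368 ± 41.5 CPM per kb), 5 of 9 in bleomycin WT (320 ± 62.5) and last in saline WT (115 ± 10.8). Exonic size belongs to the gene and may differ from the length of the transcript made, on which these ranks would depend. Ccl5 was last in bleomycin KO at 214 ± 76.5 CPM per kb, and Ccl12 was last in bleomycin WT at 175 ± 77.5, where Ccl5 was last without bleomycin WT 4 (160 ± 75.0, n = 3). Below Ccl6, neighbours in the order of each group differed by less than the larger of their SDs, except Ccl4 and Ccl2 in bleomycin KO and Ccl9 below Ccl12 (301 ± 176 CPM per kb) in saline WT. Together the 9 genes took 0.374% to 1.03% of all counts of a library.

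**Figure D1:**
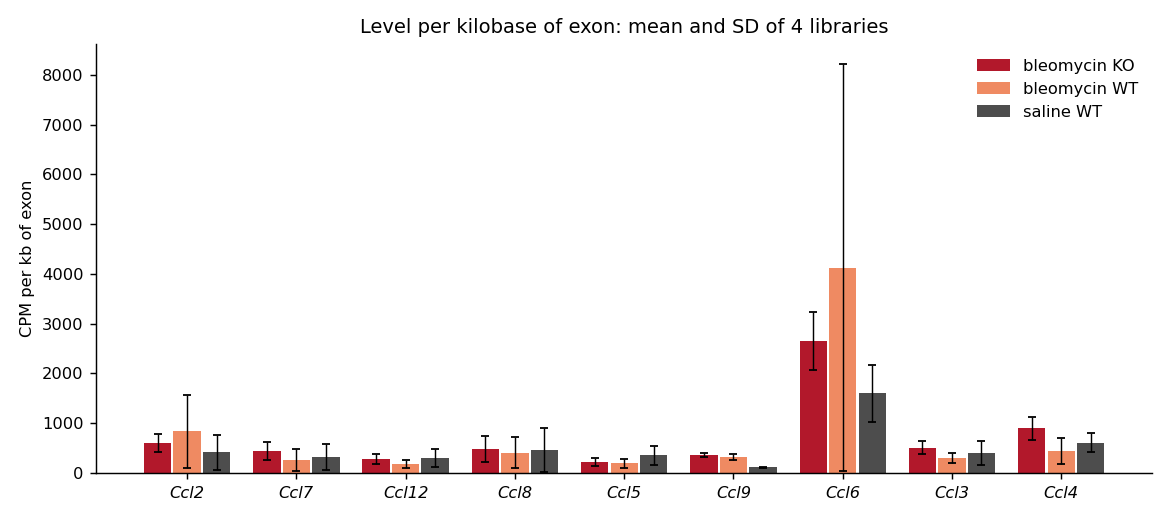
Level of each CC chemokine in CPM per kb of exon (bars, mean; error bars, SD of 4 libraries) in bleomycin KO, bleomycin WT and saline WT. Ccl6 stands highest in all 3 groups, and its error bar in bleomycin WT (SD 4087) comes with 1 library far above the other 3.

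Ccl9 and Ccl6, the ligands of Ccr1 found in rodents, had the highest log2 fold changes of the 9 between bleomycin and saline libraries, but neither passed the test over all genes. Ccl9 stood at 955, 1064, 1165 and 1242 CPM in bleomycin KO 1 to 4, at 952, 803, 1227 and 862 CPM in bleomycin WT 1 to 4, and at 375, 346, 364 and 302 CPM in saline WT 1 to 4. In TMM-scaled CPM, all 8 bleomycin libraries lay above all 4 saline libraries. On that scale the ranges of the KO and WT libraries overlapped, with 3 of the 4 WT libraries below all KO libraries. In bleomycin WT it averaged 961 ± 188 CPM, against 347 ± 32.5 CPM in saline WT (SD, n = 4 each), 2.77-fold (1.47 on the log2 scale, SE 0.34, 95% interval 0.75 to 2.19, adjusted p 0.174 by edgeR). In bleomycin KO it averaged 1106 ± 125 CPM, against the same saline libraries 3.19-fold (1.67 on the log2 scale, SE 0.34, 95% interval 0.95 to 2.40, adjusted p 0.171 by edgeR). Ccl9 held 32 of 60598 counts in the shallow saline WT 2 (TMM factor 1.54). Its TMM-scaled CPM there lay inside the range of the other saline libraries. In bleomycin WT 4 (factor 0.579) it held 4851 of 9756454 counts, without TMM a lower share than in saline WT 2. The separation of bleomycin WT from saline WT thus depends on the scaling of these 2 libraries. Without both, the remaining bleomycin WT and saline WT libraries stayed apart in CPM. The part of the neutrophil, epithelium and macrophage markers, whose sums are given above, in the Ccl9 values was not tested.

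Ccl9 passed the test in some other fits: when saline WT 2 and bleomycin WT 4 were left out, with quality weights and with DESeq2. Without saline WT 2 and bleomycin WT 4, edgeR gave 1.49 on the log2 scale (SE 0.21, adjusted p 0.0187) for bleomycin WT against saline WT, at 994 ± 215 CPM against 347 ± 39.7 CPM (SD, n = 3 each). For bleomycin KO against saline WT it gave 1.66 (SE 0.20, adjusted p 0.0114). In those 10 libraries 0.287% of 18812 genes were called higher in bleomycin WT and 0.377% higher in bleomycin KO. DESeq2 on all 12 libraries called Ccl9 in both comparisons (adjusted p 0.0124 for bleomycin WT and 0.00192 for bleomycin KO), where it called 1.09% and 0.528% of genes higher. So did limma-voom with quality weights (adjusted p 0.00613 and 0.00662), which called 0.899% and 0.522% of genes higher. Over all alternatives tried the log2 fold change ran from 1.26 to 1.66 in bleomycin WT (adjusted p 0.00613 to 0.613) and from 1.49 to 1.82 in bleomycin KO (adjusted p 0.00192 to 0.484). For bleomycin KO, edgeR also called it without bleomycin WT 4 alone (1.77, adjusted p 0.0386) or without saline WT 2 alone (1.75, adjusted p 0.0456). Without saline WT 1 alone, which the 10 libraries include, edgeR did not call it (1.53 in bleomycin WT, adjusted p 0.207; 1.73 in bleomycin KO, adjusted p 0.197).

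**Figure D2:**
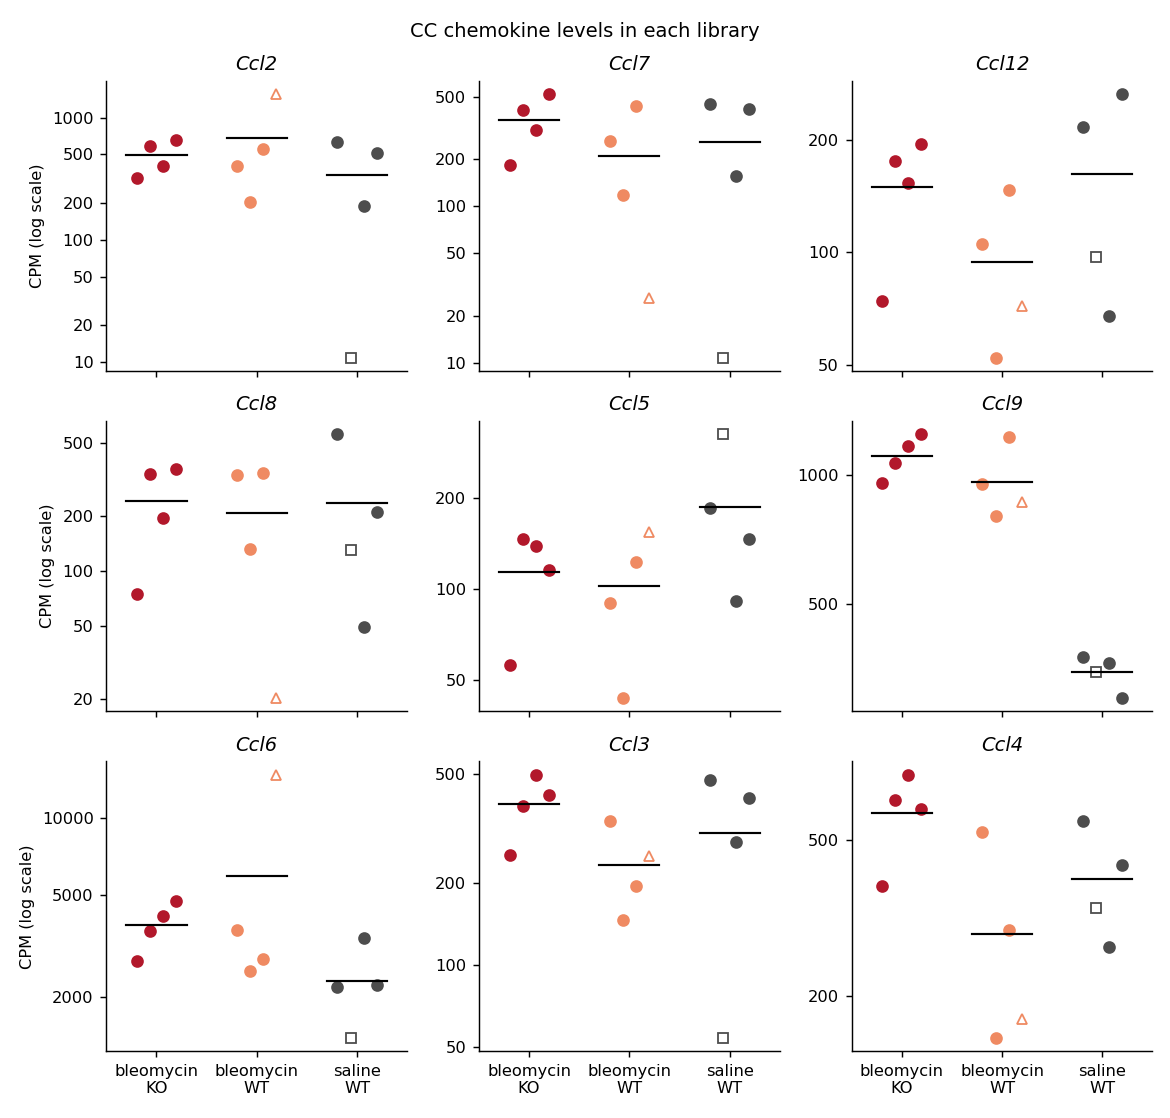
CPM (log axis) of each CC chemokine in every library of bleomycin KO, bleomycin WT and saline WT, with a line at the mean; the open triangle is bleomycin WT 4 and the open square is saline WT 2. Ccl9 is the panel in which, with TMM scaling, all 8 bleomycin libraries (803 to 1242 CPM) lie above all 4 saline libraries (302 to 375 CPM).

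Ccl6 stood at 2776, 3628, 4159 and 4745 CPM in bleomycin KO 1 to 4, at 3663, 2519, 2825 and 14734 CPM in bleomycin WT 1 to 4, and at 2193, 1384, 3402 and 2240 CPM in saline WT 1 to 4. The groups overlapped. In TMM-scaled CPM, bleomycin WT 4 was 4.91-fold above the mean of the other 3 bleomycin WT libraries (3003 ± 592 CPM). Against saline WT, bleomycin WT was 2.57-fold higher in the fit (1.36 on the log2 scale, SE 0.52, adjusted p 0.273 by edgeR), and without bleomycin WT 4 the log2 fold change was 0.47. Bleomycin KO, at 3827 ± 836 CPM against 2304 ± 830 CPM in saline WT (SD, n = 4 each), differed by 0.73 on the log2 scale (SE 0.51, adjusted p 0.733 by edgeR). The number of Ccl6 counts per Ccl9 count was 2.91 to 3.82 in bleomycin KO, 2.30 to 3.85 in bleomycin WT 1 to 3, 17.1 in bleomycin WT 4 and 4.00 to 9.34 in saline WT. Outside bleomycin WT 4, every bleomycin library thus had a lower ratio of these neighbouring genes than every saline library. The 4.00 is the ratio of the shallow saline WT 2, from 128 Ccl6 and 32 Ccl9 counts, too few to set it apart from 3.85. In saline WT 1, 3 and 4 the ratio was 5.84, 9.34 and 7.43. How often other pairs of genes separate in this way was not examined.

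The monocyte chemoattractants Ccl2, Ccl7 and Ccl12, ligands of Ccr2, did not separate the groups. Ccl2 stood at 322, 581, 403 and 652 CPM in bleomycin KO 1 to 4, at 398, 202, 558 and 1554 CPM in bleomycin WT 1 to 4, and at 631, 10.8, 189 and 513 CPM in saline WT 1 to 4. Ccl7 stood at 182, 408, 306 and 517 CPM in bleomycin KO, at 262, 117, 434 and 25.9 CPM in bleomycin WT, and at 449, 10.8, 156 and 416 CPM in saline WT, in the same order of libraries. The 10.8 CPM of saline WT 2 are 1 count of each gene, below the floor of 3 counts. Ccl2 and Ccl7 ran in parallel except in bleomycin WT 4, the library highest for Ccl2 and, apart from saline WT 2, lowest for Ccl7. Ccl12 stood at 74.0, 176, 153 and 195 CPM in bleomycin KO, at 105, 52.1, 147 and 72.0 CPM in bleomycin WT, and at 216, 97.3, 67.6 and 265 CPM in saline WT. Its groups overlapped. Their log2 fold changes for bleomycin WT against saline WT were 0.99 (SE 0.76) for Ccl2, -0.33 (SE 0.80) for Ccl7 and -0.80 (SE 0.54) for Ccl12, with edgeR adjusted p of 0.567, 0.889 and 0.502. Without saline WT 2 and bleomycin WT 4 the value for Ccl2 was -0.23.

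Ccl8, a ligand of Ccr8 in mice, varied widely between libraries of a group. It stood at 74.8, 340, 193 and 361 CPM in bleomycin KO 1 to 4, at 335, 131, 341 and 20.3 CPM in bleomycin WT 1 to 4, and at 556, 130, 49.5 and 209 CPM in saline WT 1 to 4. The highest library was 4.83 times the lowest in bleomycin KO, 16.9 times in bleomycin WT and 11.2 times in saline WT. Without bleomycin WT 4 it was 2.60 times in bleomycin WT, below the 3.71 times of Ccl7 and the 3.38 times of Ccl4. For bleomycin WT against saline WT it differed by -0.21 on the log2 scale (SE 0.80, adjusted p 0.937 by edgeR).

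Ccl3, Ccl4 and Ccl5, the inflammatory chemokines of the other cluster, also overlapped between all groups. Ccl3 stood at 254, 381, 498 and 421 CPM in bleomycin KO 1 to 4, at 336, 146, 195 and 250.04 CPM in bleomycin WT 1 to 4, and at 477, 54.0, 281 and 408 CPM in saline WT 1 to 4. Ccl4 stood at 383, 636, 736 and 602 CPM in bleomycin KO, at 526, 156, 295 and 174 CPM in bleomycin WT, and at 561, 335, 267 and 432 CPM in saline WT. For both genes bleomycin WT 1 was the highest bleomycin WT library and bleomycin KO 1 the lowest KO library. Ccl5, which T cells make in quantity as well, stood at 56.1, 146, 139 and 115 CPM in bleomycin KO, at 89.5, 43.4, 123 and 154 CPM in bleomycin WT, and at 185, 324, 91.3 and 146 CPM in saline WT. The 324 CPM of saline WT 2 are its highest level and rest on a library of 60598 counts. The part of the T and NK cell markers in the Ccl5 values was not tested. The log2 fold changes of bleomycin WT against saline WT were -0.42 (SE 0.53) for Ccl3, -0.47 (SE 0.46) for Ccl4 and -0.83 (SE 0.54) for Ccl5, with edgeR adjusted p of 0.749, 0.662 and 0.485.

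In the comparison of bleomycin WT with saline WT, edgeR thus called 0 of the 9 members, while it called 0.024% of 16679 genes higher and 0% lower. At an unadjusted p under 0.05 it took 2 members, Ccl9 and Ccl6, both higher, beside 8.47% of all genes higher and 6.19% lower. DESeq2 called 1 member. In TMM-scaled CPM, Ccl9 was the 1 member of 9 whose groups did not overlap, all bleomycin WT libraries being higher, as for 4.93% of all genes. For 0.929% there was no overlap with bleomycin WT lower. The log2 fold change was above 0 for 3 members and below 0 for 6, with a median of -0.33, against 0.08 over all genes tested.

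The comparison of bleomycin KO with bleomycin WT asks whether the deletion altered these genes in injured lungs. No member passed the test, and most log2 fold changes lay above 0. edgeR called 0 of 9 members, and it called 0% of 16679 genes higher and 0% lower (smallest adjusted p 0.934). At an unadjusted p under 0.05 it took 1 member, Ccl4, beside 0.186% of all genes higher and 3.69% lower, and DESeq2 called 0 members. No member had groups without overlap, as 0.905% of all genes had with KO higher and 0.594% with KO lower. The log2 fold change was above 0 for 7 of 9 members, with a median of 0.23, against -0.01 over all genes tested. Ccl4 averaged 589 ± 149 CPM in bleomycin KO, against 288 ± 170 CPM in bleomycin WT (SD over 4 libraries of each group; 1.03 on the log2 scale, SE 0.46, adjusted p 0.9998 by edgeR). Its lowest KO library, at 383 CPM, was below the 526 CPM of bleomycin WT 1. The log2 fold changes of the other members at or above 0.67 were 0.75 (SE 0.80) for Ccl7, 0.75 (SE 0.53) for Ccl3 and 0.67 (SE 0.54) for Ccl12, each with an edgeR adjusted p of 0.9998. For Ccl9 the log2 fold change was 0.20 with a 95% interval of -0.50 to 0.91, so a change of that gene up to 1.87-fold higher or down to 0.707-fold in bleomycin KO lies within the interval. Ccl6 and Ccl2 had values below 0 (-0.63, SE 0.51, and -0.47, SE 0.75), which without bleomycin WT 4 were 0.34 for each gene. Ccl8 and Ccl5 had 0.23 (SE 0.79) and 0.15 (SE 0.53).

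**Figure D3:**
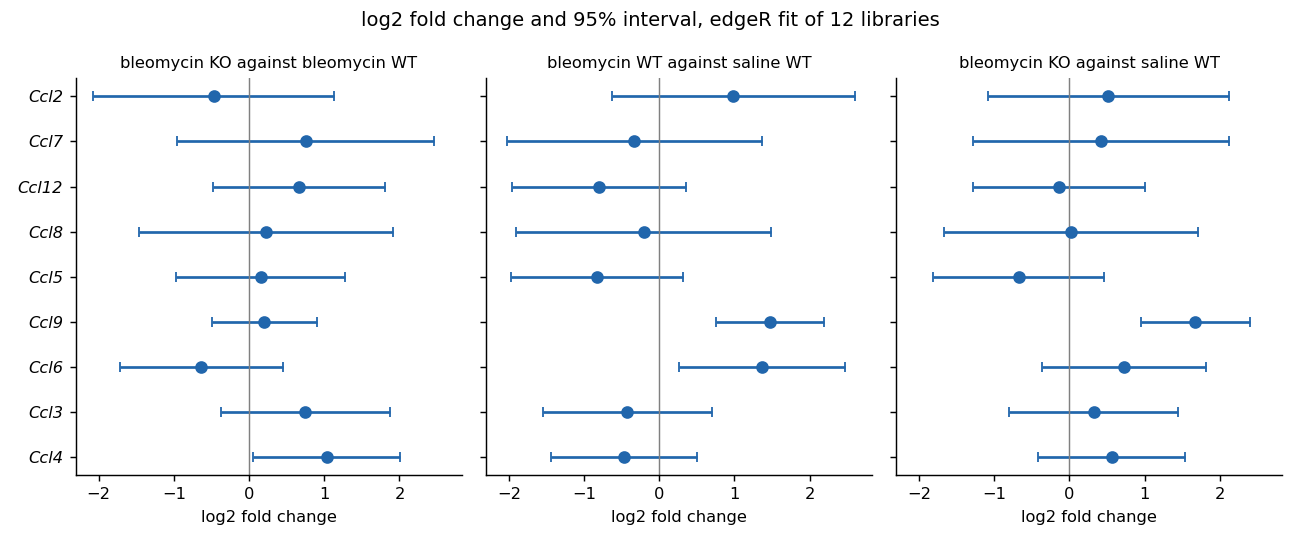
log2 fold change (points) and 95% interval (bars) of each CC chemokine in 3 comparisons, from 1 edgeR fit of 12 libraries. In the panel of bleomycin KO against bleomycin WT, Ccl4 is the 1 gene whose interval leaves out 0 (0.06 to 2.01). In both panels against saline WT the interval of Ccl9 lies above 0, and so does that of Ccl6 (0.26 to 2.47) for bleomycin WT.

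Bleomycin KO and saline WT differ in treatment and in genotype, and this comparison shares its saline libraries with the comparison of bleomycin WT with saline WT and its KO libraries with the comparison of the genotypes. edgeR called 0 of 9 members, beside 0.018% of 16679 genes called higher and 0% lower. At an unadjusted p under 0.05 it took 1 member, Ccl9, beside 2.96% of all genes higher and 6.07% lower, and DESeq2 called 1 member. Ccl9 was again the 1 member without overlap, as were 8.17% of all genes with KO higher, and 1.04% with KO lower. Among the other 8 members the log2 fold change ran from -0.68 for Ccl5 (SE 0.54) to 0.73 for Ccl6 (SE 0.51), and their edgeR adjusted p ran from 0.733 to 0.995. The log2 fold change was above 0 for 7 of 9 members, with a median of 0.42, against 0.04 over all genes tested. The median of all genes depended on the scaling: with the size factors of DESeq2 it shifted by -0.16 in this comparison and by -0.18 for bleomycin WT against saline WT, and the log2 fold change of Ccl9 minus that median was 1.61 and 1.35, against 1.63 and 1.39 with TMM.

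Within the bleomycin libraries the members varied together, apart from bleomycin WT 4. Over the other 7 bleomycin libraries, Pearson's r of log2(CPM + 1) was above 0 for all 36 pairs of members, with a median of 0.76 and a range of 0.38 to 0.99. The highest values belonged to neighbours: 0.99 for Ccl2 and Ccl7, and 0.98 for Ccl3 and Ccl4. The remaining neighbours had 0.97 (Ccl7 and Ccl12), 0.92 (Ccl6 and Ccl3), 0.85 (Ccl5 and Ccl9), 0.76 (Ccl12 and Ccl8) and 0.63 (Ccl9 and Ccl6). Ccl5 and Ccl12, which lie in different clusters, had 0.96. The median r was 0.87 among the 6 pairs of the Ccl2 cluster, 0.74 among the 10 pairs of the Ccl5 to Ccl4 cluster and 0.71 among the 20 pairs between clusters. These correlations describe 7 libraries that share scaling by library size, and they pool bleomycin KO and bleomycin WT. How pairs of other genes correlate over the same libraries was not examined. The values are thus not shown to be particular to the members or to their clusters. Bleomycin KO 1 and bleomycin WT 2 had the lowest levels of the 7 for Ccl2, Ccl5, Ccl6, Ccl7, Ccl8 and Ccl12, though not for Ccl3, Ccl4 and Ccl9. Across genes, each of these libraries was the best match of the other (Spearman 0.986), and their part in the correlations was not tested. With bleomycin WT 4 included, 28 of 36 pairs were above 0, the median was 0.56, and r for Ccl2 and Ccl7 was -0.36. For Ccl7 and Ccl8, both low in bleomycin WT 4, r was 0.94 over the 8 libraries and 0.79 over the 7.

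**Figure D4:**
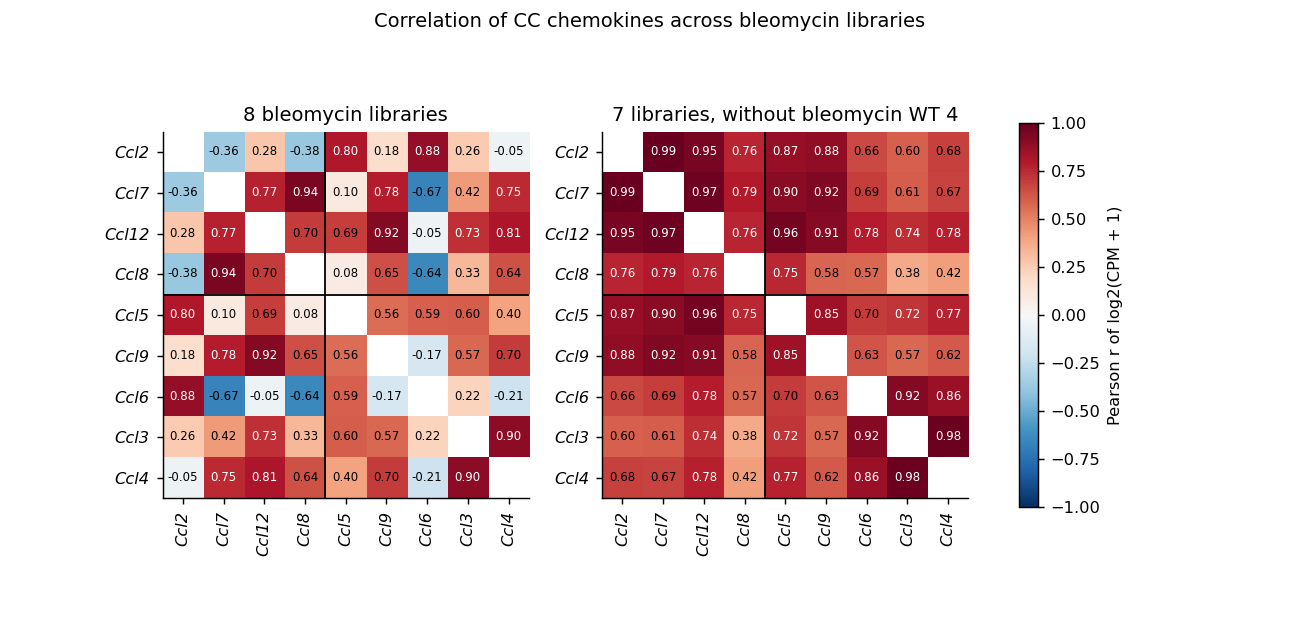
Pearson's r of log2(CPM + 1) for each pair of CC chemokines, over all 8 bleomycin libraries (left) and over 7 without bleomycin WT 4 (right); black lines part the 2 gene clusters. All pairs are above 0 on the right (0.38 to 0.99), whereas Ccl2 and Ccl6 against Ccl7 and Ccl8 are below 0 on the left.

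Bleomycin WT 4 held a different mix of CC chemokines rather than more or less of all. Beside the 4.91-fold higher Ccl6, its Ccl2 was 4.03-fold and its Ccl5 1.80-fold above the mean of the other 3 bleomycin WT libraries. Its Ccl7 was 10.4-fold and its Ccl8 13.3-fold below that mean. Ccl3, Ccl4, Ccl9 and Ccl12 lay inside the range of the other 3. These levels are CPM scaled with the TMM factor of this library (0.579, against 0.898 to 1.05 in the other 3). On total counts alone, Ccl6 and Ccl2 were still above the other 3, and Ccl7 and Ccl8 below them. Ccl5 then lay inside their range, and Ccl4, Ccl9 and Ccl12 below it. The ratio of Ccl2 to Ccl7 counts was 59.9 in this library and 1.21 to 1.77 in the 10 libraries other than this one and saline WT 2. Ccl6 made up 82.6% of all member counts in it, against 38.9% to 69.9% in the other 11. In the same library the endothelium markers summed to 805 CPM and the eosinophil, basophil and mast cell markers to 720 CPM. The lung epithelium markers summed to 965 CPM, the T and NK cell markers to 763 CPM and the dendritic cell markers to 524 CPM. In TMM-scaled CPM each of these sums was the highest of the 8 bleomycin libraries. On total counts alone this held only for the endothelium and the eosinophil, basophil and mast cell markers. Its macrophage markers summed to 28677 CPM and its neutrophil markers to 623 CPM, each the lowest of the 8. Its fibroblast markers, at 280 CPM, lay inside the range of the others. The part of these differences in the chemokine values was not tested.

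**Figure D5:**
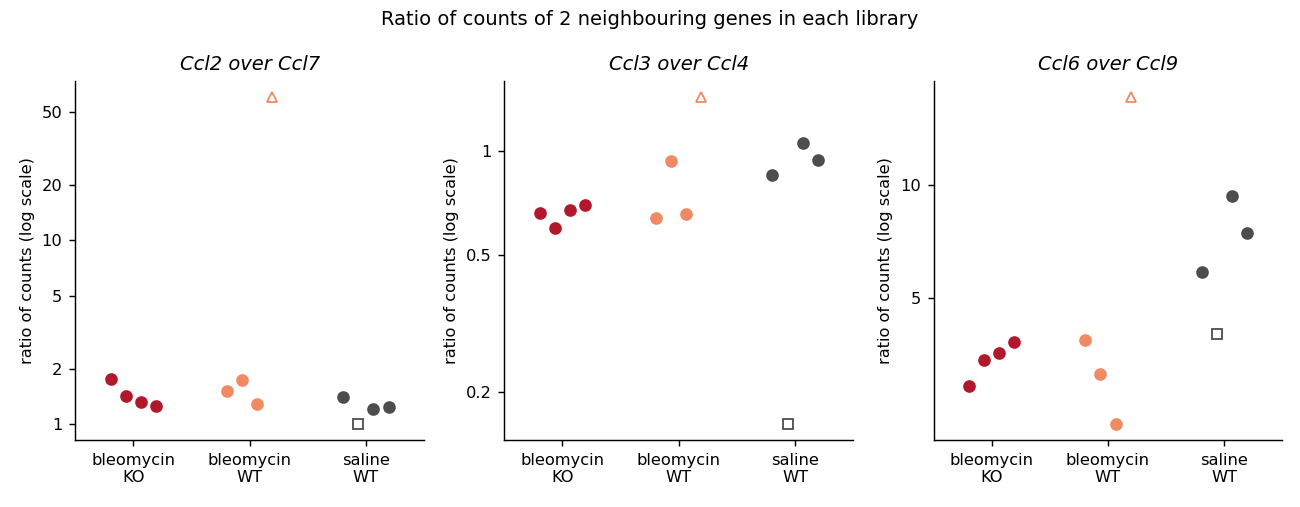
Ratio of counts of neighbouring genes in each library (log axis) in bleomycin KO, bleomycin WT and saline WT; the open triangle is bleomycin WT 4 and the open square is saline WT 2. Ccl2 over Ccl7 is 59.9 in bleomycin WT 4 and 1.21 to 1.77 in 10 others. Ccl6 over Ccl9 is lower in bleomycin KO (2.91 to 3.82) than in saline WT (4.00 to 9.34), where the 4.00 is saline WT 2 with 32 Ccl9 counts.

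The ratio of Ccl3 to Ccl4 also varied less in some groups than in others. There were 0.600 to 0.699 Ccl3 counts per Ccl4 count in bleomycin KO, 0.639 to 1.43 in bleomycin WT and 0.851 to 1.05 in saline WT 1, 3 and 4. In saline WT 2 the ratio was 0.161, from 5 Ccl3 counts and 31 Ccl4 counts.

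For each member, the 2 genes outside the family with the most similar levels were sought among 9288 genes over the 11 libraries with more than 1000000 counts. Ccl9 was most like Il7r, the alpha chain of the IL-7 receptor (Pearson's r of log2(CPM + 1) 0.99), and Trem2, a lipid-sensing receptor of macrophages (0.96). Neither rested on bleomycin WT 4, without which r was 0.996 and 0.964. Both values pool bleomycin and saline libraries, between which Ccl9 differed (803 to 1242 against 302 to 375 CPM). A gene with a like difference between them would have a high r with Ccl9. Ccl6 was most like Ube2k, a ubiquitin-conjugating enzyme (0.98, and 0.91 without bleomycin WT 4), and Pts, an enzyme of tetrahydrobiopterin synthesis (0.97 and 0.87). Ccl2 was most like Pmp22 (0.94) and the scavenger receptor Colec12 (0.92), and Ccl7 most like Gm45774 and the ribosomal protein gene Rps19 (0.95 each). For Ccl8 these were Gpatch11 and Trbc1, a T cell receptor constant region (0.93 each), and for Ccl12 Tfpi, an inhibitor of coagulation (0.89), and the B cell chemoattractant Cxcl13 (0.83). Ccl3 was most like Psmb9, an immunoproteasome subunit (0.84), and Mndal (0.80), and Ccl4 most like Actr6 (0.87) and Cox7b (0.86). Ccl5 went with mt-Nd1, a mitochondrial gene, and the proteasome activator gene Psme1 (0.92 each). The 2 genes of each member have the highest of 9288 values over 11 libraries of unequal depth that share 1 way of scaling. They are given as a description.

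Among 12 other CC chemokine genes, 5 had enough counts to be tested and edgeR called 0 of them in each of the 3 comparisons. Ccl17, a ligand of Ccr4, was the most abundant of these at 201 ± 25.9 CPM in bleomycin KO, 187 ± 108 CPM in bleomycin WT, with saline WT at 122 ± 139 CPM (SD, n = 4 each). Ccl22, another ligand of Ccr4, was at 119 ± 24.9, 80.4 ± 21.4 and 159 ± 181 CPM, and Ccl24, a chemoattractant of eosinophils, at 18.9 ± 18.0, 29.0 ± 31.6 and 31.8 ± 29.5 CPM in the same groups. These spreads exceeded the differences between groups except for Ccl22 between KO and WT. There the log2 fold change was 0.56 (SE 0.73). Ccl19, Ccl21a and Ccl26 were at 0 in all 12 libraries.

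Of 15 receptor genes, 12 were tested and edgeR called 0 in each comparison. Ccrl2, a receptor-like protein that does not signal by itself, was highest at 1820 ± 329 CPM in bleomycin KO, 1693 ± 174 CPM in bleomycin WT, with saline WT at 553 ± 314 CPM (SD, n = 4 each), with no overlap between bleomycin and saline libraries. Against saline WT it differed on the log2 scale by 1.70 (SE 0.48, adjusted p 0.266 by edgeR) in bleomycin KO and by 1.60 (SE 0.48, adjusted p 0.219) in bleomycin WT. Of all genes, 8.17% lay above saline WT without overlap in bleomycin KO and 4.93% in bleomycin WT. Ccr2, the receptor of Ccl2, Ccl7 and Ccl12, was at 563 ± 111, 760 ± 569 and 214 ± 171 CPM in the same groups, and Ccr1, the receptor of Ccl6 and Ccl9, at 430 ± 60.0, 346 ± 147 and 210 ± 207 CPM. Both overlapped between every pair of groups. Log2 fold changes of the 12 receptors lay above 0 for 11 in bleomycin KO against bleomycin WT (median 0.47), for 6 in bleomycin WT against saline WT (median 0.30) and for 9 in bleomycin KO against saline WT (median 0.78).

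From 15 genes of NF-kB, AP-1 and interferon signalling that are known to act with chemokine induction, all tested, edgeR called 0 in each comparison. The inflammatory cytokine Il1b was at 3775 ± 454 CPM in bleomycin KO, 2672 ± 1106 CPM in bleomycin WT, with saline WT at 2853 ± 1610 CPM (SD, n = 4 each). The NF-kB inhibitor Nfkbia was at 2598 ± 232, 1835 ± 487 and 1610 ± 318 CPM, and the AP-1 subunit Fos at 2164 ± 334, 1836 ± 1013 and 1894 ± 690 CPM in the same groups. For Nfkbia all bleomycin KO libraries lay above all saline WT libraries (0.69 on the log2 scale, SE 0.33, adjusted p 0.555 by edgeR), as for 8.17% of all genes. Log2 fold changes of the 15 genes lay above 0 for 10 in bleomycin KO against bleomycin WT (median 0.24), for 8 in bleomycin WT against saline WT (median 0.04) and for 10 in bleomycin KO against saline WT (median 0.19).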

How the data were processed

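RNA from lung Cx3cr1+ macrophages (12 libraries, 3 groups of 4, grouped by the sample titles) was made into cDNA from very small inputs with a full-length kit and sequenced single-end, per the labels' protocols. The kit does not mark strand. The deposited table holds the authors' raw count per Ensembl gene. GSNAP, limma and Partek and the builds GRCm38 and mm10 are named in the submitters' processing notes; no source used here gives their roles, versions or settings. Symbols and exonic sizes came from the deposited gene table, and coordinates from GENCODE vM21. The series' design text describes another experiment and was not used.

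Counts were fitted with edgeR 4.0.16 (R 4.3.3): filterByExpr by group (16679 of 52636 genes kept), TMM scaling, robust quasi-likelihood tests on all 12 libraries by group alone, and Benjamini-Hochberg adjustment over all genes tested, called at an adjusted p under 0.05. A standard error is the log2 fold change over the square root of F. CPM uses TMM-scaled library sizes, and CPM per kb divides it by the exonic size. The common biological coefficient of variation was 0.862. The steps were checked on simulated counts. Alternatives were DESeq2 1.42.0, its size factors, no filter, limma-voom (limma 3.58.1) with and without quality weights, a replicate block, only the 8 libraries compared, 10 libraries, and each library left out. Every pair of libraries of a group differed by more than sampling noise (lowest chi-square per degree of freedom 23.9). The floor of 3 counts covers counting error alone, as reads copied by PCR are not independent.

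The members and the lists were chosen with earlier results of these data known. Genes named were all 9 members; the 2 genes outside the family most correlated with each; and the 3 most abundant of each list of other CC chemokines, receptors and chemokine induction genes. The other genes named, S100a8, S100a9, Mcpt8 and the 3 chemokines at 0 included, describe a list. Counts of Ccl genes with related sequences depend on how reads matching several genes were treated, which no source used here states.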

Additional observations from a re-analysis of the deposited data

Results flagged for a closer look

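In TMM-scaled CPM, Ccl6 in bleomycin WT 4 stood far from the other 3 libraries of its group, at 14734 CPM. The gap to the nearest of them made up 0.906 of the group's whole range. Both values depend on the TMM factor of this library, 0.579. Of 27 groups checked (9 genes in 3 groups of 4), this was the 1 set apart in this way, and chance sets apart about 1 group in 20. Its part in the Ccl6 comparisons is a measured one: without it the log2 fold change was 0.47 for bleomycin WT against saline WT and 0.34 for bleomycin KO against bleomycin WT, against 1.36 and -0.63 with it.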

How the results depend on the processing

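For the 9 members, 20 alternatives gave 180 log2 fold changes per comparison. Direction and side of the threshold were kept by 168 in bleomycin KO against bleomycin WT, 168 in bleomycin WT against saline WT and 162 in bleomycin KO against saline WT; 12, 9 and 13 changed sign, and 0, 3 and 5, all of Ccl9, came to pass the threshold. No member was called in bleomycin KO against bleomycin WT under any of the 20. In both comparisons with saline WT, 1 member (Ccl9) was called with quality weights, with DESeq2 and with 10 libraries (without saline WT 2 and bleomycin WT 4); leaving out 1 library gave 0 for bleomycin WT and 0 to 1 for bleomycin KO.

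Changes of sign, none past the threshold, were as follows. In bleomycin KO against bleomycin WT, quality weights gave 0.11 for Ccl2, 0.26 for Ccl6 and -0.58 for Ccl8; 10 libraries gave 0.35, 0.36 and -0.14; leaving out 1 library gave -0.76 to 0.34 for Ccl2, -0.87 to 0.34 for Ccl6, -0.16 to 0.57 for Ccl8 and -0.091 to 0.41 for Ccl5. In bleomycin WT against saline WT, 10 libraries gave -0.23 for Ccl2, and quality weights gave 0.25 for Ccl7 and 1.10 for Ccl8; leaving out 1 library gave -0.92 to 0.12 for Ccl7 and -0.50 to 0.70 for Ccl8. In bleomycin KO against saline WT, Ccl8 was at -0.22 with DESeq2's size factors, -0.21 with DESeq2, -0.0025 with only the 8 libraries and -0.19 with 10, and Ccl3 at -0.019 with 10; leaving out 1 library gave -0.29 to 0.23 for Ccl12 and -0.22 to 0.92 for Ccl8. The causes were not tested.

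The number of genes called in bleomycin WT against saline WT, 4 in the edgeR fit of all libraries, was 1 with size factors, 780 without the filter, 319 with quality weights, 512 with DESeq2, 0 with only the 8 libraries, 81 with 10 and 1 to 11 leaving out 1. In bleomycin KO against saline WT, 3 in that fit, it was 1, 694, 232, 370, 1, 121 and 0 to 18 under the same settings, and 12 with limma-voom. In bleomycin KO against bleomycin WT, 0 in that fit, it was 243 without the filter.

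The replicate numbers of the titles did not pair the samples: same-numbered libraries correlated at -0.18 to 0.05 after removal of group means, and none correlated best with its own number. With the replicate block, 2 genes were called in bleomycin WT against saline WT and 1 in bleomycin KO against saline WT, 0 members in each comparison, and Ccl2 in bleomycin KO against bleomycin WT was at 0.021. Depth limits saline WT 2 most: its 249 member counts include 1 of Ccl2 and 1 of Ccl7.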
